A study of Saccharomyces cerevisiae with 4 samples.

Results

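The lower part of glycolysis in budding yeast, Saccharomyces cerevisiae, is described here through 10 genes that were taken from a deposited table of 6678 open reading frames (ORFs) by their systematic names. They are FBA1 (YKL060C), TPI1 (YDR050C), TDH1 (YJL052W), TDH2 (YJR009C), TDH3 (YGR192C), PGK1 (YCR012W), GPM1 (YKL152C), ENO1 (YGR254W), ENO2 (YHR174W) and CDC19 (YAL038W). All 10 were found. Total RNA was sequenced in 4 libraries, 1 in each of 4 groups. Wild type was the haploid MATα strain SEY6210, which carries the linked alleles leu2-3 and leu2-112, ura3-52, then his3-∆200 with trp1-∆901, and also suc2-∆9, lys2-801 and GAL. The mutant, JMY047, is the same strain with PHO23 replaced (pho23∆::HIS5), and the labels name a single such strain. Each genotype was sampled growing in the rich medium YPD at mid-log phase, and again after 2 h in SD-N, a medium without nitrogen. The media differ in more than nitrogen, and these differences cannot be told apart. PHO23 codes for a component of Rpd3L, a histone deacetylase complex.

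Lower glycolysis turns fructose-1,6-bisphosphate into pyruvate and yields the ATP and reduced NAD of the pathway. Aldolase splits the sugar, triose phosphate isomerase joins both products into a single path, and the steps after it run through glyceraldehyde-3-phosphate dehydrogenase, phosphoglycerate kinase, phosphoglycerate mutase, enolase and pyruvate kinase. In yeast fed on glucose these enzymes are among the most abundant proteins, and their genes are known targets of the activators Gcr1 and Rap1. All steps but the last also run backwards in gluconeogenesis.

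The values are RPKM as the authors deposited them, that is, reads scaled to the length of the ORF and to the size of the library. RPKM is relative to the library, so less of a transcript per cell cannot be told apart from more of all others, nor fewer cells from less RNA per cell. The summed RPKM was 883544 to 1101484 per library, and a rough estimate from the spacing of the lowest values gave 19650000 to 27500000 reads. At that depth the 95% counting interval of a member's log2 fold is at most ±0.0439 in any of the 4 comparisons. It covers counting error only and says nothing about the spread between cultures, for which there are no replicates. A fold is log2 of the ratio of RPKM + 1, and an ORF is counted at 2-fold or more if it reached an RPKM of 10 in a library compared. PHO23 had RPKM values of 12.3 (growing) and 23.4 (starved) with the gene intact, against 0.130 and 0.0546 in the deletion. GAP1, the general amino acid permease, was at 6.61 and 8.77 in the growing libraries and at 2085 and 2068 in the starved ones. STE3, the a-factor receptor made by alpha cells, was above 0 in all 4 libraries. It was lower in the deletion, at 291 (wild type) and 59.6 (deletion) growing and at 600.1 and 161 starved. MF(ALPHA)1, also checked, was lower in the deletion too, with log2 folds of -1.42 growing and -2.35 starved. The 137 cytosolic ribosomal protein genes held 39.4% and 38.6% of the summed RPKM in growing wild type and deletion, and 8.396% and 20.7% after starvation. Their part in the folds below was tested only by the rescaling without them that is given with the results.

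In growing cells the 10 genes stood near the top of the table in both genotypes. Together they held 4.25% (wild type) and 4.15% (deletion) of the summed RPKM during growth. Their share of the starved libraries was 1.93% and 1.18%. FBA1, encoding aldolase (XI, 326408 to 327487 in R64), had an RPKM of 11194 (wild type) and 11056 (deletion) during growth, and of 3960 and 2921 after starvation. It ranked 1 among all ORFs in both growing libraries, and 13 and 21 in the starved ones. All 10 genes ranked within the first 200 ORFs while growing. Starved wild type had 7 of them there and the starved deletion 5.

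**Figure D1:**
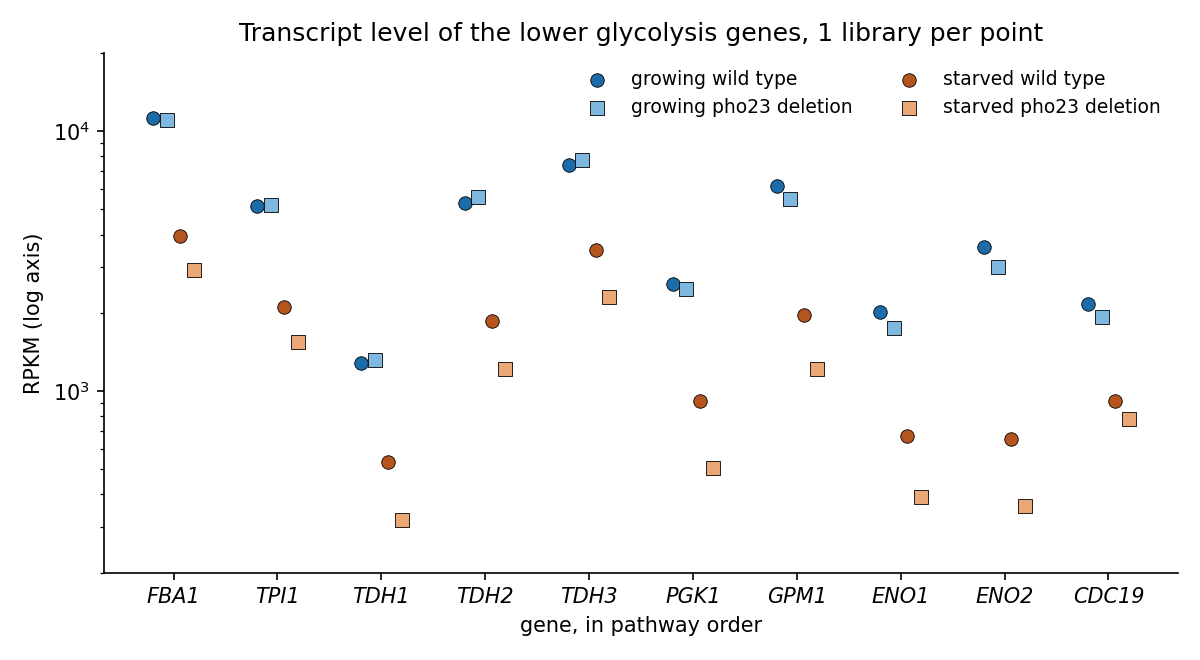
RPKM of each gene in the 4 libraries, on a log axis, with genes in pathway order and 1 library per point. For all 10 genes the growing points lie above both starved points, and the starved deletion lies below starved wild type.

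TPI1, for triose phosphate isomerase (IV, 555726 to 556472), was at 5160 and 5188 growing, in wild type and deletion, and at 2103 and 1539 starved. The 3 genes of glyceraldehyde-3-phosphate dehydrogenase covered a wide range. TDH3 (VII, 882812 to 883810) was at 7431 and 7769 growing and at 3482 and 2301 starved. TDH2 (X, 453683 to 454681) was at 5275 and 5559, then at 1863 and 1216. TDH1 (X, 338271 to 339269) was at 1286 and 1322, then at 531 and 317, the lowest of the 10 genes in every library. For each of these 4 genes both growing values lie close together, and the starved deletion is below starved wild type.

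PGK1, for phosphoglycerate kinase (III, 137746 to 138996), was at 2587 and 2463 growing and at 917 and 507 starved. GPM1, for phosphoglycerate mutase (XI, 163642 to 164385), was at 6159 and 5504 growing and at 1955 and 1213 starved. The enolase genes were ENO1 (VII, 1000927 to 1002240), at 2011 and 1753 growing and at 672 and 390 starved, and ENO2 (VIII, 451327 to 452640), at 3591 and 2990, then at 653 and 361. ENO2 was above ENO1 in both growing libraries and slightly below it in both starved ones. CDC19, for the main pyruvate kinase (I, 71786 to 73288), was at 2168 and 1925 growing and at 919 and 783 starved. The highest of the 10 genes stood 8.71 times above the lowest in growing wild type and 9.20 times in the starved deletion, with FBA1 and TDH1 at the ends in all 4 libraries. With 1 library per group the order of close neighbours, such as TPI1 at 5160 and TDH2 at 5275 in growing wild type, has no measured spread.

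The first question was how wild-type cells changed these transcripts after the shift to SD-N. All 10 genes were at least 2-fold lower in starved than in growing wild type, where 13.3% of the 5956 ORFs tested were 2-fold lower and 32.7% 2-fold higher. Their summed RPKM in starved wild type was 36.4% of that in growing wild type. ENO2 stood apart with a log2 fold of -2.46, or 18.2% of its growing RPKM. The next lowest were GPM1 at -1.65 and ENO1 at -1.58, followed by TDH2 and FBA1, both near -1.5, and PGK1 at -1.49. TPI1 was at -1.29, TDH1 at -1.27, CDC19 at -1.24 and TDH3 at -1.09, which is 46.9% of its growing level. The median was -1.497, while the median of all ORFs tested was 0.53. The distance between both medians was -2.03 and ranged from -1.97 to -2.05 over the 8 other settings of pseudocount, filter and scaling. A scaling shifts both medians almost alike, so this distance could hardly change with it and does not test it. When libraries were scaled to equal sums of RPKM, TPI1 at -0.98, TDH1 at -0.96, CDC19 at -0.92 and TDH3 at -0.78 no longer reached 2-fold, and 6 of 10 did.

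The same shift in the deletion gave lower folds for every gene on the deposited scale, though CDC19 differed little, at -1.30 against -1.24 in wild type. All 10 were again at least 2-fold lower, against 8.77% of the 5863 ORFs tested and with 22.4% 2-fold higher. ENO2 was again lowest, at -3.05 or 12.1% of its growing RPKM. PGK1 was at -2.28, TDH2 at -2.19, GPM1 at -2.18, ENO1 at -2.16 and TDH1 at -2.05. FBA1 stood at -1.92, both TDH3 and TPI1 at -1.75, and CDC19 highest at -1.30. The median was -2.11, against 0.34 for all ORFs tested, and 1.02% of those ORFs lay below it. In wild type 8.53% lay below the members' median. Over the 10 genes the starvation folds of both genotypes, which share no library, correlated with r = 0.88 (Pearson) and rho = 0.75 (Spearman). That is a description of 10 genes measured in the same 4 libraries, and ENO2 lies far from the rest on both axes.

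**Figure D2:**
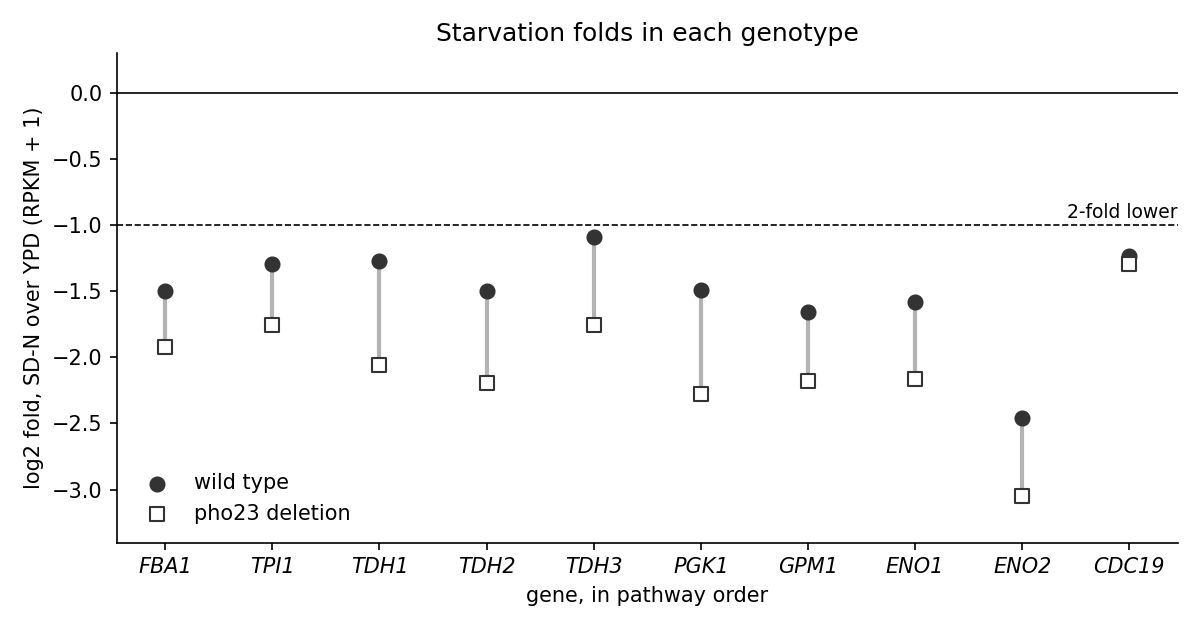
Starvation fold of each gene (log2 of RPKM + 1 in SD-N over YPD) in wild type (filled circles) and in the deletion (open squares), with a dashed line at 2-fold lower. All 20 points lie below the line, ENO2 lowest in both genotypes, and CDC19 has the shortest distance between its points.

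Next, the difference between both starvation folds was taken for each gene, as the fold in the deletion minus that in wild type. PGK1 and TDH1 had the lowest values, both at -0.78. TDH2 was at -0.69, TDH3 at -0.66, ENO2 at -0.59, ENO1 at -0.58 and GPM1 at -0.53, with TPI1 at -0.46 and FBA1 at -0.42. CDC19, at -0.06, was nearest to 0, and its value turned to 0.14 with median-of-ratios scaling, to 0.04 with upper-quartile scaling and to 0.01 with equal sums without the ribosomal protein genes and the 10 genes. The other 9 genes stayed below 0 under all 8 alternatives. None of the 10 reached 2-fold, where 5.45% of the 6034 ORFs tested were 2-fold lower and 5.27% 2-fold higher. Below 0 lay 63.9% of all ORFs tested, and 16.7% lay below the median of the 10 genes. That median was -0.59, against -0.15 over all ORFs tested. With 1 library in each group this difference could not be compared with a spread between cultures.

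Set directly beside each other, growing wild type and growing deletion differed little in these genes. None of the 10 was at 2-fold, where 2.08% of the 5439 ORFs tested were 2-fold lower in the deletion and 3.95% 2-fold higher. The log2 genotype folds ran from -0.26 for ENO2 to 0.08 for TDH2, with a median of -0.04 against 0.07 for all ORFs tested. ENO1 was at -0.20, CDC19 at -0.17, GPM1 at -0.16, PGK1 at -0.07 and FBA1 at -0.02. TPI1 at 0.01, TDH1 at 0.04, TDH3 at 0.06 and TDH2 at 0.08 lay above 0 on the deposited scale and below it with median-of-ratios scaling.

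In starved cells all 10 genes were lower in the deletion than in wild type, and none by 2-fold. Of the 5976 ORFs tested there, 4.13% were 2-fold lower and 5.30% 2-fold higher, and 55.0% lay below 0. PGK1 was at a log2 fold of -0.85, which is 55.3% of the wild-type RPKM, and ENO2 also at -0.85, again at 55.3%. ENO1 stood at -0.78, TDH1 at -0.74, GPM1 at -0.69, TDH2 at -0.62 and TDH3 at -0.60. TPI1 at -0.45, FBA1 at -0.44 and CDC19 at -0.23, or 85.2% of the wild-type RPKM, were nearest to 0. The median of -0.65 compares with -0.04 over all ORFs tested, and 9.40% of those lay below it. Every one of the 10 values stayed below 0 and above -1 under the 8 alternatives, between -0.998 and -0.13. The genotype comparisons in growing and starved cells share no library.

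**Figure D3:**
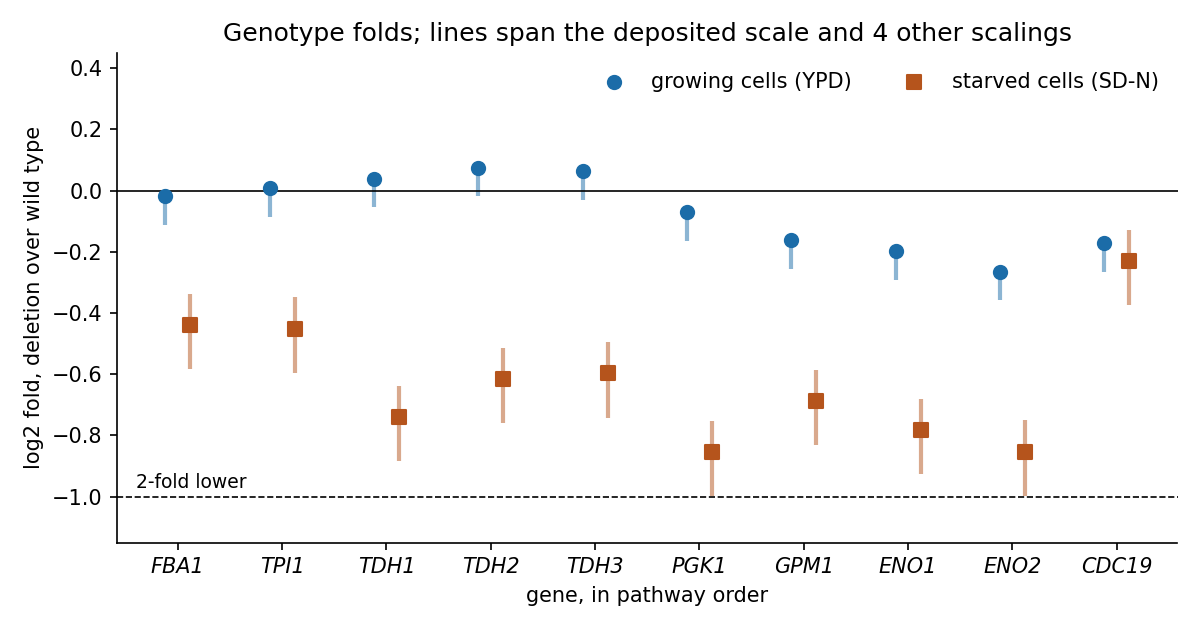
Genotype fold of each gene (log2, deletion over wild type) in growing cells (circles) and starved cells (squares), with lines that span the deposited scale and 4 other scalings. The growing values lie between -0.26 and 0.08 and the starved values between -0.85 and -0.23, and CDC19 has the nearest pair.

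**Figure D4:**
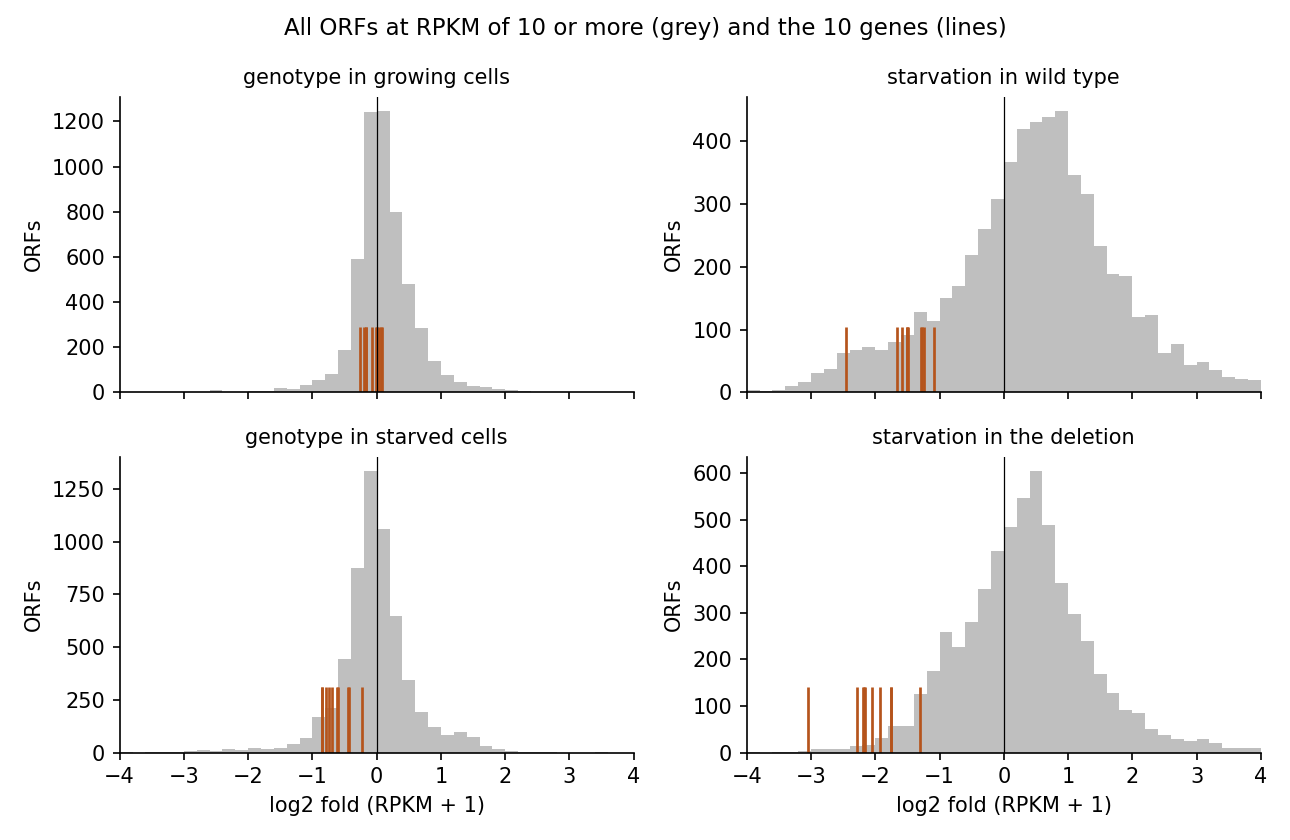
Histograms of the log2 folds of all ORFs at an RPKM of 10 or more in a library compared (grey), with the 10 genes as vertical lines, for the 4 comparisons. Outside the growing genotype comparison, the lines lie to the left of 0 in every panel, at medians of -0.65, -1.497 and -2.11.

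Enolase and glyceraldehyde-3-phosphate dehydrogenase are each encoded by more than 1 of the genes, and their shares moved with the medium and little with the genotype. ENO2 supplied 64.1% of the summed RPKM of the enolase genes (wild type) and 63.0% (deletion) during growth, then 49.3% and 48.1% after starvation. The ratio of ENO2 to ENO1 was 1.79 and 1.71 growing, and 0.972 and 0.925 starved. On the log2 scale the starvation fold of ENO2 lay 0.88 below that of ENO1 in each genotype. Both values of -0.88 come from pairs of libraries that do not overlap. Being ratios within a library, these shares do not depend on the scaling. TDH3 supplied 53.1% and 53.0% of its step in growing wild type and deletion, and 59.3% and 60.0% after starvation. TDH2 went from 37.7% and 37.9% to 31.7% in both genotypes, while TDH1 kept between 8.28% and 9.19%. Summed per step, the starvation fold in wild type was lowest for enolase at -2.08 and highest for pyruvate kinase at -1.24. Glyceraldehyde-3-phosphate dehydrogenase was almost level with pyruvate kinase there, at -1.25, and their order has no measured spread. In the deletion enolase and pyruvate kinase were at the ends, at -2.66 and -1.30.

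**Figure D5:**
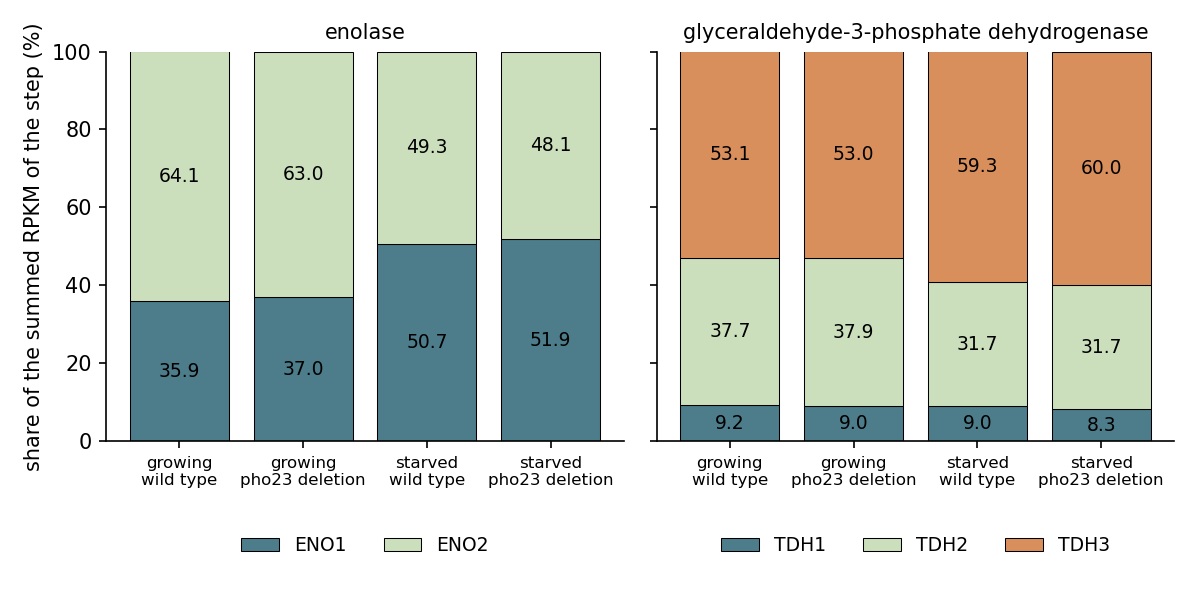
Share of each gene in the summed RPKM of its step (%), for enolase and for glyceraldehyde-3-phosphate dehydrogenase, in the 4 libraries. ENO1 goes from 35.9% and 37.0% in the growing libraries to 50.7% and 51.9% in the starved ones, and TDH3 from 53.1% and 53.0% to 59.3% and 60.0%.

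These isozyme genes are close copies, so their reads may have been shared between them, and their separate values are uncertain. ENO1 and ENO2 have coding sequences of 1314 bases that are identical at 1246 positions (94.8%). Of all 50-base windows of ENO1, 23.6% occur elsewhere in the genome. For TDH2 the figure is 31.3%, for TDH3 24.4% and for TDH1 15.7%, while it is 0 for the other 5 genes. Read length and the treatment of reads with several matches count as not given in the sources used here. TDH2 and TDH3 are identical at 95.8% of 999 positions, TDH1 and TDH2 at 90.2%, and TDH1 and TDH3 at 88.9%. The stretch of 80 coding bases (positions 320 to 399) in which the enolase genes differ most shows where a read can tell them apart. Capitals mark the 13 bases that differ, at chrVII:1001246-1001325 and chrVIII:451646-451725 of R64, plus strand.
ENO1: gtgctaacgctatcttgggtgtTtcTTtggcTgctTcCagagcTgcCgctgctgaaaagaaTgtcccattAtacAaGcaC
ENO2: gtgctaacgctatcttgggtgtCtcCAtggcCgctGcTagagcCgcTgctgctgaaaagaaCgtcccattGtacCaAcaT
The longest run that both enolase genes share spans 112 bases (coding positions 551 to 662), and a read inside it has no letter by which to tell them apart. It lies at chrVII:1001477-1001588 and chrVIII:451877-451988.
ENO1 and ENO2: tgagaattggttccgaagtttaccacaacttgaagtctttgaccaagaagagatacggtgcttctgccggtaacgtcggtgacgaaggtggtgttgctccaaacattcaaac

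The most different 80 bases of the TDH genes (coding positions 44 to 123) are shown for the same reason, with capitals at the 25 positions where the 3 are not all alike. They lie at chrX:338314-338393 (plus strand), chrX:454559-454638 (minus strand) and chrVII:883688-883767 (minus strand).
TDH1: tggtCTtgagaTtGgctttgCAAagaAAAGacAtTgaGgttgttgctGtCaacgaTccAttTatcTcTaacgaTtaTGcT
TDH2: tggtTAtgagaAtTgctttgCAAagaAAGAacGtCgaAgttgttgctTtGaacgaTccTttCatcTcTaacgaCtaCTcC
TDH3: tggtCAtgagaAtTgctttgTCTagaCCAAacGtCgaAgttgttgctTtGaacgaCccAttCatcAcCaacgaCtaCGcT
Farther along the gene, the longest run shared by TDH2 and TDH3 has 173 bases (coding positions 355 to 527).

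At 3 of the genes the table also lists an ORF that, by its systematic name, is next to the gene on the other strand and that has no entry in the RefSeq table. YCR013C, beside PGK1, was at an RPKM of 1293 and 1222 growing and 472 and 260 starved, in wild type and deletion. That is 49.97%, 49.6%, 51.5% and 51.3% of PGK1 in the same libraries. YKL153W, beside GPM1, held 46.7%, 46.7%, 47.1% and 46.2% of the GPM1 value. YAL037C-B, beside CDC19, held 47.2%, 47.3%, 47.9% and 47.3% of the CDC19 value. In all 3 cases the ORF on the other strand followed its partner in every library. The authors' treatment of strand and overlap is not given in the sources used here. Reads of PGK1, GPM1 and CDC19 therefore cannot be told apart from reads of these ORFs. The levels of these 3 genes relative to the other 7 are uncertain for that reason. Since the shares varied by under 2 percentage points between libraries, the starvation folds of the partners were alike, at -1.45 for YCR013C and -1.49 for PGK1 in wild type.

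The genes listed as upper glycolysis did not all go the same way. In starved against growing wild type, 4 of 9 genes of upper glycolysis were at least 2-fold higher, 1 was 2-fold lower and 4 were under 2-fold. Among all ORFs tested, 32.7% were 2-fold higher and 13.3% 2-fold lower. PFK26, for the kinase that makes fructose-2,6-bisphosphate, was at 2.05, GLK1, for glucokinase, at 1.85 and EMI2, a glucokinase paralog, at 1.57. The lower gene was HXK2, for the main hexokinase of glucose-grown cells, at -1.28 (-0.96 with equal sums). PFK27, a second gene for such a kinase, was at 1.24 and under 2-fold in 3 of the 4 scalings. The subunits of phosphofructokinase, PFK1 and PFK2, were at 0.22 and 0.36. PGI1, for phosphoglucose isomerase, and HXK1, for a second hexokinase, were both at -0.51. In the deletion 1 of the 9 was 2-fold higher after starvation, EMI2 at 1.15, against 22.4% of all ORFs tested. None was 2-fold lower, against 8.77% of all, with HXK2 at -0.97. These calls depend on the setting, since EMI2 stayed at 2-fold in 4 of 8 alternatives and HXK2 reached it in 3, while with equal sums 3 genes were at 2-fold. HXK1 was at 2-fold between genotypes, at -1.11 growing and -1.27 starved, in all 8 alternatives too. GLK1 was just under it in growing cells, at 0.998, and reached it with equal sums and with a pseudocount of 0.1.

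Downstream, fermentation genes were split. Of 9 genes, 4 were 2-fold lower and 2 were 2-fold higher after starvation in wild type, and 5 and 2 in the deletion. Over all ORFs tested the shares were 13.3% and 32.7% in wild type, and 8.77% and 22.4% in the deletion. ADH1, for the main alcohol dehydrogenase of fermentation, had an RPKM of 4554 and 4536 growing and of 503 and 274 starved, with starvation folds of -3.18 and -4.04. PDC1, for the main pyruvate decarboxylase, was at 3274 and 2310 growing and at 514 and 439 starved (-2.67 and -2.39). PDC6, a minor pyruvate decarboxylase, went the other way, from 0.540 and 0.495 growing to 124 in both starved libraries. Its log2 folds of 6.34 and 6.39 are understated by the pseudocount of 1. ALD6, an acetaldehyde dehydrogenase, was at 2-fold between starved genotypes, at -1.56, and with equal sums ADH1 was as well, at -1.02. ADH5, the other gene of the 2 that were higher, was at 1.54 and 1.15, and under 2-fold in the deletion in 3 scalings.

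Genes of gluconeogenesis, which shares the reversible lower steps, were mostly higher after starvation. In wild type 4 of 5 were at least 2-fold higher, and in the deletion 3, or 1 where an RPKM of 30 was required. With the filter at an RPKM of 10, 32.7% and 22.4% of all ORFs tested were 2-fold higher. PCK1, for phosphoenolpyruvate carboxykinase, went from 3.18 RPKM to 44.9 in wild type and from 0.622 to 13.3 in the deletion. PYC1, for pyruvate carboxylase, had starvation folds of 2.67 and 2.72 and FBP1, for fructose-1,6-bisphosphatase, of 2.12 and 1.54. In starved cells the genotype fold of PCK1 was -1.68.

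The minor isozymes of the lower steps were far less abundant than the main ones. PYK2, the second pyruvate kinase gene, had 9.32 and 6.71 RPKM growing, then 22.3 and 13.5 starved. The ratio of CDC19 to PYK2 was 233 and 287 growing, and 41.3 and 58.0 starved. GPM2 and GPM3, related to GPM1, had wild-type starvation folds of 0.22 and -0.04. ERR1, ERR2 and ERR3, enolase-related genes with nearly equal values whose reads may have been shared, were under an RPKM of 6 in all libraries and were not counted. Of the 6 genes in this list, 3 were tested for starvation. PYK2, at 1.17 in wild type, reached 2-fold higher, as did 32.7% of all ORFs tested. It did so in 3 of the 8 alternatives, and without the filter on RPKM the count in wild type was 4, with the ERR genes.

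In the glycerol and methylglyoxal branch, which leaves the pathway at the triose phosphates, GPP1 was lower and GPD1 higher after starvation in wild type. GPP1, for glycerol-3-phosphatase, had starvation folds of -1.46 and -1.98 (wild type, deletion). GPD1, for glycerol-3-phosphate dehydrogenase, was at 1.98 and 0.40. The other 4 of 6 genes were under 2-fold in both genotypes, though among them GLO2 reached 1.04 in wild type with equal sums. Among all ORFs tested in wild type, 32.7% were 2-fold higher and 13.3% 2-fold lower, and in the deletion 22.4% and 8.77%.

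Transcripts of the known regulators of glycolytic genes stood between an RPKM of 8.82 and 137 in the 4 libraries. GCR1, for the activator of glycolytic genes, had an RPKM of 28.5 and 27.6 growing and of 32.7 and 18.9 starved, with a genotype fold of -0.76 in starved cells. Its partner GCR2 was at 28.3 and 34.1, then 18.8 and 20.4, and RAP1 lay between 29.2 and 34.3 in all 4 libraries. TYE7, another activator of glycolytic genes, was at 137 and 96.5 growing and at 127 and 58.5 starved. Its starved genotype fold was -1.104, at 2-fold or more in all 8 alternatives, and the other 8 regulators were under 2-fold between genotypes. Between starved genotypes, 4.13% of all ORFs tested were 2-fold lower and 5.30% 2-fold higher. Between growing genotypes the shares were 2.08% and 3.95%. After starvation, 2 of the 9 were 2-fold higher in each genotype, against 32.7% (wild type) and 22.4% (deletion) of all ORFs tested. MSN4, a stress activator, was at 2.21 and 2.02 and GAL11, a Mediator subunit, at 1.099 and 1.09. MSN4 stayed at 2-fold in all 8 alternatives and GAL11 in 4, in each genotype. These pathway genes come from lists written with earlier results of these data known.

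The 10 genes share strong codon bias, a feature that the choice by name did not use. The effective number of codons is 20 where each amino acid has a single codon and 61 where all are used alike. It ran from 24.1 for TDH3 to 27.1 for GPM1 in these genes, with a median of 25.7. Over 5667 coding sequences of at least 300 bases the median was 51.6. TDH3 had the lowest value of all, TDH2 ranked 6, CDC19 ranked 8 and ENO2 ranked 9, and GPM1, the least biased of the 10, ranked 53. GC content was 44.3% to 47.6%, against a median of 39.8%. No introns interrupt their annotated coding sequences, and the genes lie on 7 chromosomes.

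Their promoters were searched for 4 short motifs on both strands, with overlapping matches counted, in R64 windows of 300 bases. A window from 250 bases before to 50 after the start codon was chosen first, and the adjoining window upstream, which begins 550 bases before it, was added after the first had been seen. The Gcr1 core CTTCC was found in the nearer window of 5 of 10 genes, against 46.5% of 5967 such windows. In the farther window it was found in 8 of 10, against 49.3% of 5966. At least 2 matches stood in 2 of 10 nearer windows, against 13.2% of all, and in 6 of 10 farther windows, against 15.9%. The TATA sequence TATAAA was found in 9 of 10 nearer windows (45.3% of all), GPM1 being the exception, and in 0 of 10 farther ones (33.6%). The stress response element AGGGG was in 4 of 10 in each window, against 21.7% and 23.0%. The Rap1 core ACCCATACA was in none of the 10, and in 0.419% and 0.805% of all windows. Only this exact run of letters was searched, so its absence does not show that Rap1 sites are missing. A match is a run of letters and shows no binding.

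Farther windows are printed for PGK1 and CDC19, which hold 3 CTTCC matches each, and for ENO1 and ENO2, whose starvation folds differ most among the copies. Capitals mark CTTCC on either strand. They lie at chrIII:137196-137495 for PGK1, chrI:71236-71535 for CDC19, chrVII:1000377-1000676 for ENO1 and chrVIII:450777-451076 for ENO2, all plus strand.
PGK1: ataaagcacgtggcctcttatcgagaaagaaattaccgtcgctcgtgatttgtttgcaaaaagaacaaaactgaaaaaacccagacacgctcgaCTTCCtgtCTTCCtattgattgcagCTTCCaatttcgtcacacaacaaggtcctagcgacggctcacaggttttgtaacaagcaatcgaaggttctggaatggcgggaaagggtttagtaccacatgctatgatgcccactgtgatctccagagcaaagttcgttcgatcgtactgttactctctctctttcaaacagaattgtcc
CDC19: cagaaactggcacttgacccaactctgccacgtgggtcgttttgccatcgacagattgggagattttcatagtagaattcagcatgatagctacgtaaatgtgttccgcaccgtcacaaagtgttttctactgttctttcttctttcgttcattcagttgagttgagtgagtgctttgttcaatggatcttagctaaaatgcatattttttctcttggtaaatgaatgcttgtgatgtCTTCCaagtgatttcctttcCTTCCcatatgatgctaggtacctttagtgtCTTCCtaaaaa
ENO1: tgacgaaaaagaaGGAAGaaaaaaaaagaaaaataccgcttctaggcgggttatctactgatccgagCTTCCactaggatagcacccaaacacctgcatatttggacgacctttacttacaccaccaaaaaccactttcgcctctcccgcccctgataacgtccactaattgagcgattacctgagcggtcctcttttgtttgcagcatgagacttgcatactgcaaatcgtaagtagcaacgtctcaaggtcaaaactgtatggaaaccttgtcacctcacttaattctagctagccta
ENO2: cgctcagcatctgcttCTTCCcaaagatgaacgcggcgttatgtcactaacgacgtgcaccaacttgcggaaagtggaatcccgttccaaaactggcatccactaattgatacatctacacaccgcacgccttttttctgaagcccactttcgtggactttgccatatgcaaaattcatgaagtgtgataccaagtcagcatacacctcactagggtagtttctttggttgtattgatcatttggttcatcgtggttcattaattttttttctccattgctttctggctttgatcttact
In PGK1 the matches begin 456, 448 and 431 bases before the start codon, and in CDC19 they begin 312, 292 and 261 bases before it. ENO1 holds 2, at 537 and 483, and also an AGGGG match at 401. ENO2 holds 1 CTTCC match here, at 534, and 2 in its nearer window, at 170 and 94.

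Other ORFs were ranked by how closely their log2 profile over the 4 libraries, centred on its own mean, matched the mean profile of the 10 genes. Of the 10, TDH2 lay nearest to that mean, at a Euclidean distance of 0.12, and ENO2 farthest, at 0.99, with CDC19 at 0.59. Outside the 10, the nearest were YKL153W at 0.16, EFB1 at 0.17, YCR013C at 0.17, CLB1 at 0.18 and PPA2 at 0.26. YKL153W and YCR013C are the ORFs opposite GPM1 and PGK1, whose reads cannot be told apart from theirs. Their nearness to the mean, and to TDH1 and ENO1 below, is therefore not independent of the 10 genes. EFB1, for a subunit of translation elongation factor 1, was at an RPKM of 2620 and 2124 growing and 839 and 547 starved. CLB1, for a B-type cyclin, was at 88.4 and 96.5, then 32.1 and 18.7, and PPA2, for the mitochondrial pyrophosphatase, at 165 and 135, then 44.6 and 33.4. The ORFs nearest to TDH1 were YCR013C, CLB1 and FAA4, for a fatty acyl-CoA synthetase, at 0.21, 0.22 and 0.23. Nearest to ENO1 were YKL153W, YCR013C and EFB1 at 0.07, 0.10 and 0.16. With 4 libraries these distances describe likeness in these samples only.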

How the data were processed

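Total RNA of 4 yeast libraries was measured. Per the submitters' processing notes, CASAVA 1.8.2 and Bowtie2 2.1.0 were used with build sacCer3. The authors deposited 1 RPKM value per ORF and library. Their counting tool, annotation, strand setting and handling of multiply matching reads count as not given in the sources used here. RefSeq R64, the same assembly, gave symbols and lengths for 5997 of 6678 ORFs, and all sequences.

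Folds were computed as log2 of the ratio of RPKM + 1 on the deposited scale with Python 3.11.15, numpy 2.4.6 and pandas 2.3.3. With 1 library per group no test was run, and no model that adds genotype and condition was fitted. ORFs at an RPKM of at least 10 in a library compared were counted at 2-fold. Reads were estimated roughly as the number, between 10000000 and 30000000, whose inverse best divides the lowest values of RPKM times kilobases. Multiples of that number divide them about as well. The 8 alternatives were a pseudocount of 0.1 or of 5, a filter at an RPKM of 30 or none, and 4 scalings, namely median of ratios, upper quartile, equal sums, and equal sums without ribosomal protein genes and the 10 genes.

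On 5997 simulated ORFs at the estimated depths, the starvation comparison in wild type counted 100% of planted 4-fold and 0% of planted 1.5-fold changes. Only counting error was simulated. The named genes are all 10, up to 3 per pathway list and comparison by size of fold, the nearest profiles and unannotated ORFs at the next systematic number. Some that this rule names are left out, and some others are named to complete a list's account. The members and lists were chosen with earlier results of these data known. A planned comparison of protein sequences was replaced by coding sequences.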

Additional observations from a re-analysis of the deposited data

Results flagged for a closer look

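Some genotype folds had opposite directions in growing and starved cells, each beyond its counting error. The differences between conditions were not tested, since each fold rests on 1 library per group. Among the 10 genes these were TDH1 (0.04 growing and -0.74 starved, a difference of -0.78), TDH2 (0.08 and -0.62, a difference of -0.69) and TDH3 (0.06 and -0.60, a difference of -0.66). All 3 growing folds lay below 0 with median-of-ratios scaling.

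In the rest of the pathway the largest such difference was that of GPD1 at -1.58, followed by PFK26 at -1.10 and GLK1 at -1.05. PYC2, for a pyruvate carboxylase, had a difference of -0.79, GPP2, a second glycerol-3-phosphatase gene, of -0.57, and GPM2 of -0.54. For GPP1 and ADH3, a mitochondrial alcohol dehydrogenase, it was -0.51. The starved folds of GLK1 and ADH3 lay close to 0, at -0.05 and -0.10, so their sign depends on the scale. With median-of-ratios scaling the starved genotype median of all ORFs tested went from -0.04 to 0.06. On the deposited scale, starvation folds were opposite between wild type and deletion for GCR1, at 0.19 and -0.52 with a difference of -0.72. The same held for GPM2, at 0.22 and -0.32 with a difference of -0.54. The sign of both wild-type folds depends on the scale. With median-of-ratios scaling the wild-type starvation median of all ORFs tested went from 0.53 to 0.02, a larger shift than either fold.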

How the results depend on the processing

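Pseudocounts and filters moved none of the 5 medians beyond counting error and left the counts of the 10 genes at 2-fold as they were. This was fixed in advance by their levels. With RPKM values of 317 or more in every library, no filter used could drop a gene, and the pseudocounts could change little. Scaling moved the medians without turning their direction. With median of ratios they were -0.14 and -0.55 for genotype in growing and starved cells, -2.03 and -2.45 for starvation in wild type and deletion, and -0.39 for the difference of starvation folds. Upper-quartile scaling gave -0.11, -0.62, -1.78, -2.29 and -0.49 in the same order. Equal sums without ribosomal protein genes and the 10 genes gave -0.063, -0.60, -1.85, -2.39 and -0.51. Equal sums over all ORFs gave -0.80 for genotype in starved cells, -1.18 and -1.94 for starvation, and -0.73 for the difference, and left the growing genotype median within counting error. Among the 8 alternatives it alone changed how many of the 10 genes were at 2-fold, leaving 6 of the 10 genes at 2-fold in starved wild type. Single genes changed sign in 8 of 80 values for genotype in growing cells and in 3 of 80 for the difference of starvation folds, and in 0 of 80 in each other comparison. For the other pathway lists, 28 of 240 counts at 2-fold under an alternative moved by over 1.5 times, through pseudocount, filter and scaling alike, and 29 of 42 single calls were kept in every alternative. Leaving out a replicate could not be done with 1 library per group. No paired analysis was possible because no group holds a second replicate. Depth limits little here, since counting error is small at these levels, and the number of cultures limits every value.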
